A study of Homo sapiens with 12 samples.

Results

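The thioredoxin system and its NADPH supply were described here by 9 genes, TXN, TXNRD1, SRXN1, PRDX1, PRDX6, PGD, TALDO1, TKT and ME1, of 18417 genes tested in all. The members were chosen by symbol, as array entries whose annotation gives exactly 1 of these symbols; each had 1 such probe set, and all 9 were measured. RNA came from SZ95 sebocytes, cells of human sebaceous gland origin kept as an immortalised line, and was read on 12 Affymetrix whole-transcript arrays. The 4 groups were OLR1 siRNA with UVPAPC, OLR1 siRNA untreated, scramble siRNA with UVPAPC and scramble siRNA untreated, with 3 arrays each (n = 3 for every group). All cells were transfected by lipofection, and the treated ones received UVPAPC, the phospholipid PAPC oxidised with ultraviolet light, at 25 µg/ml once 24 h had passed. OLR1 encodes LOX-1, a receptor for oxidised low-density lipoprotein. The labels name no vehicle, no unoxidised PAPC, no untransfected cells and no other siRNA against OLR1, and the sources used here do not state the length of the exposure. Everything was measured in 1 cell line, and no label tells whether replicates came from separate cultures. The p-values therefore reflect the spread among these samples alone, which may be technical.

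Thioredoxin is a small protein that reduces disulfide bonds in other proteins and passes electrons to peroxiredoxins, which break down hydrogen peroxide and lipid peroxides. Oxidised thioredoxin is reduced again by thioredoxin reductase, which takes its electrons from NADPH, and overoxidised peroxiredoxins are repaired by sulfiredoxin. NADPH is supplied in the cytosol by the oxidative pentose phosphate pathway, malic enzyme and isocitrate dehydrogenase, while transketolase and transaldolase link the pentose phosphates back to glycolysis. Many of these genes are known targets of the transcription factor NRF2, which binds the antioxidant response element. Sebocytes make large amounts of lipid, and fatty acid synthesis also uses NADPH.

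Over the genes tested, the median log2 signal of an array lay between 6.31 and 6.36, and the number of arrays limits the precision. OLR1 checked the siRNA. Its log2 signal was 4.47, 4.33 and 4.41 with OLR1 siRNA and UVPAPC, against 6.19, 5.49 and 5.74 with scramble siRNA and UVPAPC. In untreated cells it was 4.66, 4.38 and 4.48 with OLR1 siRNA, against 6.18, 5.56 and 5.35 with scramble siRNA. OLR1 fell by 1.40 on the log2 scale with UVPAPC (limma adjusted p = 0.000162) and by 1.191 untreated (adjusted p = 0.000484). The epithelial markers KRT7, KRT8, KRT18, KRT19, EPCAM and CDH1 lay at percentile 98.98 or higher among the signals of every array, and PPARG and MUC1 between 75.16 and 84.61. FADS2 lay between percentiles 95.49 and 97.04 and PLIN2 between 42.39 and 60.44. The wax ester synthases AWAT1 and AWAT2 and the melanocortin receptor MC5R, markers of mature sebocytes, lay between percentiles 11.55 and 32.44. Of 13 sebaceous and epithelial markers 1 rose and 2 fell with UVPAPC under each siRNA, where 6.71% (OLR1 siRNA) and 7.31% (scramble siRNA) of all genes passed in either direction. PLIN2 rose and PPARG fell under both, while MUC1 fell with OLR1 siRNA and CDH1 with scramble siRNA. The summed log2 signal of the 13 was 115.77 to 116.39 against 115.86 to 117.09 with OLR1 siRNA and 116.31 to 116.9 against 116.66 to 117.51 with scramble siRNA. In the OLR1 siRNA effect averaged over both treatments KRT7 fell and CDH1 rose (limma adjusted p = 0.029 and 0.0146). The part of these markers in the results was not tested. Among markers of other cell types, the fibroblast genes DCN and LUM lay at percentile 5.642 or lower and PDGFRA at 13.21 or lower, while COL1A1 lay at 60.5 to 66.77 and COL1A2 and COL3A1 between 35.18 and 43.66. The melanocyte genes MLANA and TYR lay at 12.77 or lower, the leukocyte genes PTPRC and CD3E at 10.02 or lower, and PMEL, CD14 and CD79A between 27.81 and 38.96. No fibroblast (of 6), melanocyte (of 3) or leukocyte marker (of 4) passed the threshold in any of the 5 comparisons, while TYR fell in the OLR1 siRNA effect averaged over both treatments (-0.23, adjusted p = 0.017). With scramble siRNA the summed log2 signal of the melanocyte markers was 12.38 to 12.62 with UVPAPC against 11.93 to 12.14 untreated, and that of the leukocyte markers 17.29 to 17.52 against 16.96 to 17.25. In UVPAPC cells the melanocyte sum was 11.61 to 12.001 with OLR1 siRNA against 12.38 to 12.62 with scramble siRNA. These 3 pairs of ranges did not overlap. Those of the fibroblast, melanocyte and leukocyte lists did overlap in the other pairs of groups that differ in siRNA alone or treatment alone. The part of these lists in the results was not tested. Of 4 endothelial markers, CDH5 alone rose with OLR1 siRNA, by 0.50 on the log2 scale with UVPAPC and by 0.65 untreated. The summed log2 signal of the 4 was 20.99 to 21.13 with OLR1 siRNA and UVPAPC against 20.62 to 20.91 with scramble siRNA and UVPAPC, and 21.27 to 21.35 against 20.88 to 21.15 untreated. PECAM1, VWF and KDR lay at percentile 24.15 or lower, while CDH5 lay at 74.92 to 86.28. With OLR1 siRNA the summed ranges of the 4 did not overlap between UVPAPC and untreated cells, and with scramble siRNA they did. The part of this list in the UVPAPC responses and the OLR1 siRNA effects below was not tested. In each group 1 array was picked, after the data were seen, for the highest score on principal component 1 once group means were removed. The deviations of these 4 arrays from their group means correlated in all 6 pairs, at r = 0.177 to 0.266 across genes. Picking them on that score favours such correlation.

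The sequences upstream of the start sites are shown for SRXN1, TXNRD1 and ME1, which passed the threshold in the UVPAPC response under at least 1 siRNA, and for PGD, which has the motif but did not pass. Each is the 250 bases before a RefSeq start site (GRCh38.p14), 5′ to 3′ on the gene's strand, and capitals mark each match on either strand to TGACNNNGC, the core letters of the antioxidant response element.
SRXN1, chr20:653201-653450, minus strand: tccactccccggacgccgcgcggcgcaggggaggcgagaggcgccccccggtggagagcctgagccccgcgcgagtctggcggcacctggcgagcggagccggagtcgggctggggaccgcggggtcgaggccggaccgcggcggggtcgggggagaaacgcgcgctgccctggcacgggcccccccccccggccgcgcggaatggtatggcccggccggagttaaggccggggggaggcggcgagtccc
TXNRD1, upstream start site, chr12:104215529-104215778, plus strand: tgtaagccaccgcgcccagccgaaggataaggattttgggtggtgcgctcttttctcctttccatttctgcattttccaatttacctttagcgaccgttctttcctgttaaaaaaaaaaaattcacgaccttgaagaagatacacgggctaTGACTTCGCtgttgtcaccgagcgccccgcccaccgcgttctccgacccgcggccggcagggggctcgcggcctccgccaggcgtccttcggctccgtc
TXNRD1, downstream start site, chr12:104286782-104287031, plus strand: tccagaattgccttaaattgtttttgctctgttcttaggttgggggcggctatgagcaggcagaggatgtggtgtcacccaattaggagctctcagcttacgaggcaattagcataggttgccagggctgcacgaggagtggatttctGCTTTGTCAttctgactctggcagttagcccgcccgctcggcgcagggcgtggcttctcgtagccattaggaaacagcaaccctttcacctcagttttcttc
ME1, chr6:83431052-83431301, minus strand: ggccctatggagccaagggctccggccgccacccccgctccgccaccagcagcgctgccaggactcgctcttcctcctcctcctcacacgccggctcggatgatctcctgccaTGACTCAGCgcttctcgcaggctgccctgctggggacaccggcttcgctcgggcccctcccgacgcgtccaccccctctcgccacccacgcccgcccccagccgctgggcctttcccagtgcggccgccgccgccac
PGD, chr1:10398814-10399063, plus strand: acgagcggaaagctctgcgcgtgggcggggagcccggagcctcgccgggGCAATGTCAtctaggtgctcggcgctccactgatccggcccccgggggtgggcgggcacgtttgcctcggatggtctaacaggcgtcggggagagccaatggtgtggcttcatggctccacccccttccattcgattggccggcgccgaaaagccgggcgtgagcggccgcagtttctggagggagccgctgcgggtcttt
The match of ME1 began 137 bases before the start site. Those of TXNRD1 began 99 and 102 bases before its start sites, the second on the opposite strand, and that of PGD 201 bases before its start site, also on the opposite strand. Of the 8 upstream windows listed for 7 of the members, 4 held the motif, in 3 genes, and in 35116 such windows of all genes 10.9% did. The windows of SRXN1, TXN, TALDO1 and TKT held no match. In ME1 the same letters contain TGACTCA, the AP-1 motif, which 4.2% of all windows held on either strand. A match in these windows describes letters only, and no binding was measured.

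SRXN1 (probe set 8064375), which encodes sulfiredoxin, had the largest UVPAPC response of the 9 genes under either siRNA. Its log2 signal was 10.32, 10.07 and 10.15 with OLR1 siRNA and UVPAPC, against 8.61, 8.64 and 8.60 with OLR1 siRNA untreated. With scramble siRNA it was 9.96, 10.05 and 9.92 with UVPAPC, against 8.60, 8.59 and 8.72 untreated. Every UVPAPC array lay more than 1 log2 unit above every untreated array, so the groups were far apart. With UVPAPC SRXN1 rose 2.95-fold under OLR1 siRNA, with limma adjusted p = 1.57e-09 (log2 fold change 1.56, 95% CI 1.41 to 1.72). The rise with scramble siRNA was 2.52-fold with adjusted p = 1.19e-08 (log2 fold change 1.34, 95% CI 1.18 to 1.49). These responses ranked 10th and 13th from the top among the 18417 genes. Without the 4 picked arrays, SRXN1 was at 1.61 with OLR1 siRNA and 1.34 with scramble siRNA (adjusted p = 3.12e-06 and 1.28e-05). In bulk RNA, as here, more cells with a transcript and more of it per cell cannot be told apart, nor can fewer cells and less per cell.

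TXNRD1 (probe set 7958174), the cytosolic thioredoxin reductase, had the next largest response. Its log2 signal was 11.98, 11.76 and 11.88 with OLR1 siRNA and UVPAPC, against 10.92, 10.91 and 10.94 with OLR1 siRNA untreated. With scramble siRNA it was 11.69, 11.66 and 11.49 with UVPAPC, against 10.74, 10.60 and 10.69 untreated. The groups did not overlap under either siRNA. With UVPAPC TXNRD1 rose 1.93-fold under OLR1 siRNA (log2 fold change 0.95, 95% CI 0.79 to 1.11, adjusted p = 8.90e-07). The rise under scramble siRNA was 1.92-fold (0.94, 95% CI 0.78 to 1.10, adjusted p = 1.13e-06). These responses ranked 36th and 30th from the top. Without those 4 arrays TXNRD1 was at 1.02 and 0.96 (adjusted p = 3.09e-05 and 6.08e-05). Under each siRNA the interval of SRXN1 lay above that of TXNRD1, and both lay above the intervals of the other 7 members.

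**Figure D1:**
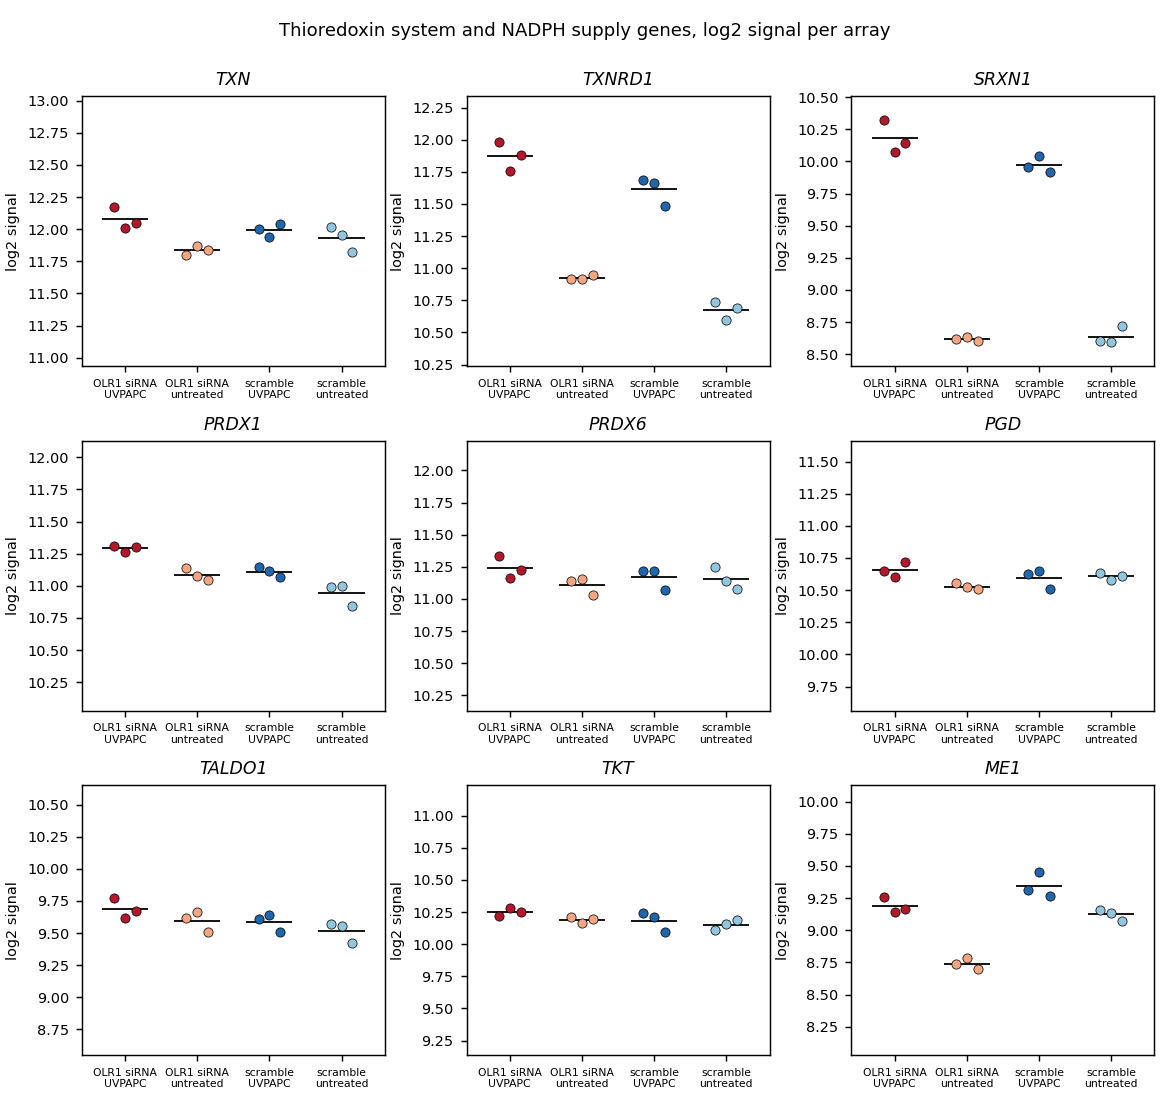
Log2 signal (vertical axis, with the same span in every panel) of the 9 members on each array, with 1 point per array, 3 arrays per group and a bar at the group mean. SRXN1 and TXNRD1 sit higher in both UVPAPC groups than in the untreated groups, and ME1 is lowest in untreated cells with OLR1 siRNA.

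TXN (probe set 8163185), thioredoxin itself, did not pass the test in either response. Its log2 signal was 12.17, 12.01 and 12.05 with OLR1 siRNA and UVPAPC, against 11.80, 11.87 and 11.84 with OLR1 siRNA untreated, and these groups did not overlap. With scramble siRNA it was 12.005, 11.94 and 12.04 with UVPAPC, against 12.02, 11.95 and 11.82 untreated, and the groups overlapped. The log2 fold change was 0.24 with OLR1 siRNA (95% CI 0.09 to 0.39, adjusted p = 0.0538) and 0.06 with scramble siRNA (95% CI -0.09 to 0.21, adjusted p = 0.719), neither past the threshold of 0.05. The value with OLR1 siRNA passed in 5 of 22 alternative settings, among them without the third untreated scramble array (adjusted p = 0.0457) and with a trend in the prior variance (adjusted p = 0.00349).

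The peroxiredoxins PRDX1 (probe set 7915733) and PRDX6 (probe set 7907439) did not pass in either response. PRDX1, which reduces hydrogen peroxide with electrons from thioredoxin, had a log2 signal of 11.31, 11.26 and 11.30 with OLR1 siRNA and UVPAPC, against 11.14, 11.08 and 11.05 with OLR1 siRNA untreated. Under scramble siRNA it was 11.15, 11.11 and 11.07 with UVPAPC, against 10.99, 10.998 and 10.85 untreated. The UVPAPC arrays were all higher under both siRNAs, yet the log2 fold changes of 0.21 (95% CI 0.07 to 0.34, adjusted p = 0.0737) and 0.17 (95% CI 0.03 to 0.30, adjusted p = 0.156) did not pass. PRDX6, a peroxiredoxin with a single catalytic cysteine that draws on glutathione and reduces phospholipid hydroperoxides, ranged from 11.17 to 11.34 with OLR1 siRNA and UVPAPC, against 11.03 to 11.16 untreated. Its range was 11.07 to 11.22 with scramble siRNA and UVPAPC, against 11.08 to 11.25 untreated. The log2 fold changes of PRDX6 were 0.13 (95% CI -0.02 to 0.29, adjusted p = 0.362) and 0.02 (95% CI -0.14 to 0.17, adjusted p = 0.946), and the value with scramble siRNA turned to between -0.02 and -0.01 without the third untreated scramble array or the first or second scramble UVPAPC array. PRDX1 passed in 2 of 22 alternative settings under each siRNA, among them a trend in the prior variance (adjusted p = 0.00835 and 0.0356).

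Among the genes of NADPH supply, ME1 (probe set 8127854) rose with UVPAPC in the cells given OLR1 siRNA. ME1, the cytosolic malic enzyme, which makes NADPH while turning malate into pyruvate, had a log2 signal of 9.26, 9.14 and 9.16 with OLR1 siRNA and UVPAPC, against 8.73, 8.79 and 8.70 with OLR1 siRNA untreated. With scramble siRNA it was 9.32, 9.45 and 9.26 with UVPAPC, against 9.16, 9.14 and 9.07 untreated. Under both siRNAs the groups did not overlap. With UVPAPC ME1 rose 1.36-fold under OLR1 siRNA (log2 fold change 0.45, 95% CI 0.30 to 0.59, adjusted p = 0.000576). With scramble siRNA its log2 fold change was 0.22 (95% CI 0.08 to 0.37), with adjusted p = 0.0627. This response passed in 6 of 22 alternative settings, among them without the third scramble UVPAPC array (adjusted p = 0.0471) and with repeated quantile normalization (adjusted p = 0.00889).

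The pentose phosphate genes PGD (probe set 7897620), TALDO1 (7937465) and TKT (8088106) did not pass in either response. PGD, the 6-phosphogluconate dehydrogenase that yields NADPH in the oxidative branch, had a log2 signal of 10.65, 10.60 and 10.72 with OLR1 siRNA and UVPAPC, against 10.55, 10.52 and 10.51 untreated. With scramble siRNA it was 10.63, 10.65 and 10.51 with UVPAPC, against 10.63, 10.58 and 10.61 untreated, and these groups overlapped. Its log2 fold changes were 0.13 (95% CI -0.01 to 0.27, adjusted p = 0.301) with OLR1 siRNA and -0.01 (95% CI -0.15 to 0.12, adjusted p = 0.939) with scramble siRNA, the second of which turned positive with cyclic loess between arrays (0.03). For transaldolase, TALDO1, whose log2 signal ranged from 9.43 to 9.77 over all arrays, they were 0.09 (95% CI -0.06 to 0.25) and 0.07 (95% CI -0.08 to 0.22). For transketolase, TKT, which ranged from 10.09 to 10.28, they were 0.06 (95% CI -0.07 to 0.20) and 0.03 (95% CI -0.11 to 0.16). The intervals place the rise of these 3 genes below 0.27 on the log2 scale, so a UVPAPC response as large as that of TXNRD1 was outside them.

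Counted over the 9 members, 3 rose with UVPAPC and 6 did not pass under OLR1 siRNA, where 3.46% of all genes tested rose. With scramble siRNA 2 rose and 7 did not pass, where 2.67% of all genes rose. The UVPAPC arrays lay above all untreated arrays in 8 of the 9 members with OLR1 siRNA, TALDO1 being the exception, against 10.9% of all genes, and in 4 of the 9 with scramble siRNA, against 10.1%. The median log2 fold change of the members was 0.21 with OLR1 siRNA and 0.07 with scramble siRNA, while over all genes it was -0.01 and -0.00.

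**Figure D2:**
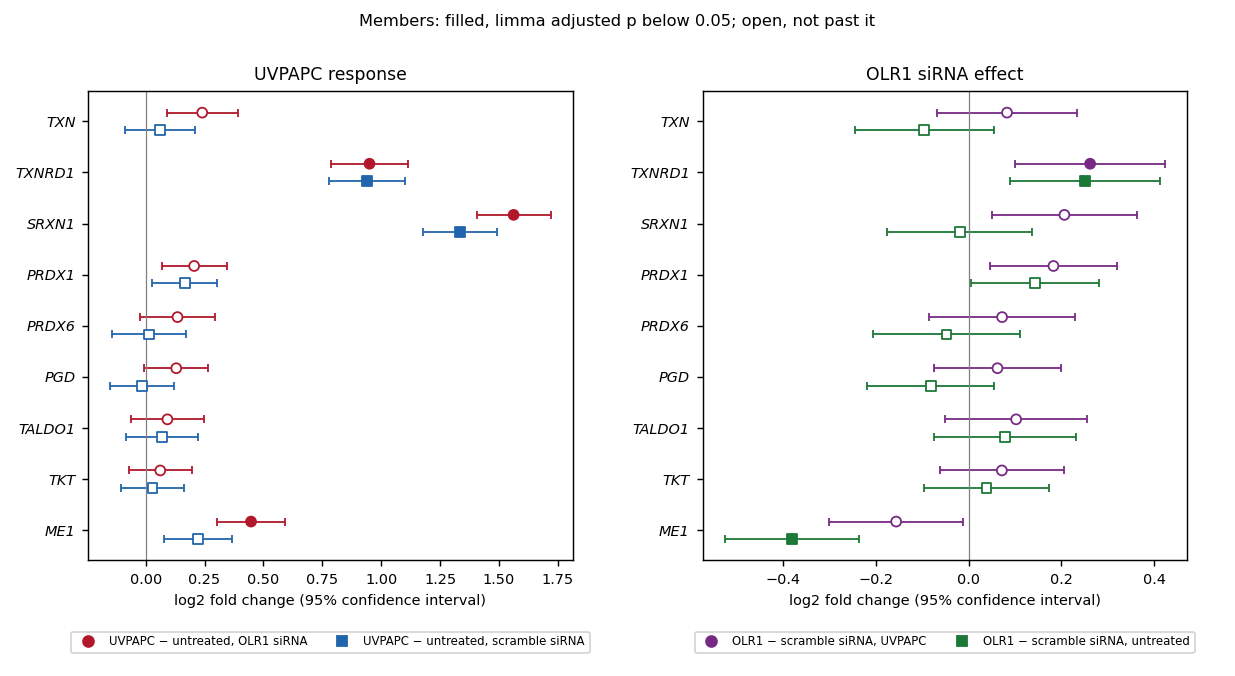
Log2 fold changes of the 9 members with 95% confidence intervals (horizontal axis), for the UVPAPC response under each siRNA on the left and the OLR1 siRNA effect in each treatment on the right, with filled symbols where the limma adjusted p was below 0.05. SRXN1 and TXNRD1 stand apart on the left at 0.94 to 1.56, and on the right ME1 in untreated cells (-0.38) and TXNRD1 (0.26 and 0.25) are filled.

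The UVPAPC response averaged over both siRNAs, 6 arrays against 6, was added after these values were seen. In it 4 of 9 members rose, where 5.95% of all genes did. Besides SRXN1 (1.45) and TXNRD1 (0.94), these were PRDX1 (log2 fold change 0.19, 95% CI 0.09 to 0.28, adjusted p = 0.0112) and ME1 (0.33, 95% CI 0.23 to 0.44, adjusted p = 0.000144). TXN was at 0.15 (95% CI 0.04 to 0.26, adjusted p = 0.0569), and the intervals of PRDX6, PGD, TALDO1 and TKT included 0.

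The OLR1 siRNA effect compares OLR1 with scramble siRNA within a treatment, and here ME1 fell in untreated cells and TXNRD1 rose in both treatments, by small amounts. In untreated cells ME1 fell 1.303-fold (log2 fold change -0.38, 95% CI -0.53 to -0.24, adjusted p = 0.00191): its log2 signal was 8.73, 8.79 and 8.70 with OLR1 siRNA, against 9.16, 9.14 and 9.07 with scramble siRNA. With UVPAPC it was 9.26, 9.14 and 9.16 with OLR1 siRNA, against 9.32, 9.45 and 9.26 with scramble siRNA, where the nearest arrays of the 2 groups both round to 9.26 and the groups did not overlap. The log2 fold change there was -0.16 (95% CI -0.30 to -0.01, adjusted p = 0.147). It passed in 2 of 22 alternative settings, among them repeated quantile normalization (-0.25, adjusted p = 0.011). The untreated OLR1 siRNA arrays enter both this fall and the UVPAPC rise of ME1 with OLR1 siRNA, and the untreated scramble arrays enter both this fall and the response with scramble siRNA, so these values share arrays. Without the 4 picked arrays, ME1 was at -0.355 in untreated cells (adjusted p = 0.0319). Its UVPAPC response with OLR1 siRNA was then at 0.45 (adjusted p = 0.0112).

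TXNRD1 rose 1.199-fold with OLR1 siRNA in UVPAPC cells (log2 fold change 0.26, 95% CI 0.10 to 0.42, adjusted p = 0.0341) and 1.190-fold in untreated cells (0.25, 95% CI 0.09 to 0.41, adjusted p = 0.0489). All 3 OLR1 siRNA arrays lay above all 3 scramble arrays in each treatment. Neither call was firm. Without the 4 picked arrays, TXNRD1 was at 0.26 with UVPAPC (adjusted p = 0.0741) and 0.20 untreated (adjusted p = 0.164). With UVPAPC it was lost without the third scramble UVPAPC array (adjusted p = 0.137) and without the first (0.154) or the third (0.084) OLR1 siRNA UVPAPC array. In untreated cells it was lost without any one of 9 of the 12 arrays (adjusted p = 0.0564 to 0.187) and was kept without the third scramble UVPAPC array or the first or second OLR1 siRNA UVPAPC array. With cyclic loess between arrays, a setting added after the values were seen, the effects were 0.145 (adjusted p = 0.167) with UVPAPC and 0.20 (adjusted p = 0.0641) untreated.

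The other members did not pass for OLR1 siRNA. SRXN1 was at 0.21 (95% CI 0.05 to 0.36, adjusted p = 0.0794) with UVPAPC. It passed there in 4 of 22 alternative settings, among them without the second OLR1 siRNA UVPAPC array (adjusted p = 0.043). In untreated cells SRXN1 was at -0.02 (95% CI -0.18 to 0.14) and turned to 0.02 without the third untreated scramble array. PRDX1 was at 0.18 (95% CI 0.04 to 0.32, adjusted p = 0.0775) with UVPAPC and 0.14 (95% CI 0.00 to 0.28, adjusted p = 0.201) untreated, with all OLR1 siRNA arrays above all scramble arrays in both. TXN, PRDX6, PGD, TALDO1 and TKT lay between -0.10 and 0.10 in both treatments, with every interval including 0. With UVPAPC 1 of 9 members rose and 0 fell, where 7.94% of all genes rose and 4.56% fell. In untreated cells 1 rose and 1 fell, where 5.29% rose and 4.42% fell. With UVPAPC the OLR1 siRNA arrays lay above all scramble arrays in 3 of the 9 members and below them in 1, against 16.6% and 14.1% of all genes. Untreated they lay above in 2 members and below in 2, ME1 and PGD, against 15% and 13.7% of all genes.

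Averaged over both treatments, also added after the values were seen, 2 of 9 members rose and 1 fell with OLR1 siRNA, where 12.9% of all genes rose and 10.2% fell. TXNRD1 was at 0.26 (95% CI 0.14 to 0.37, adjusted p = 0.00267), PRDX1 at 0.16 (95% CI 0.07 to 0.26, adjusted p = 0.0177) and ME1 at -0.27 (95% CI -0.37 to -0.17, adjusted p = 0.000826). The call of PRDX1 ended with repeated quantile normalization (0.10, adjusted p = 0.101) and with cyclic loess (0.08, adjusted p = 0.18).

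Whether the UVPAPC response depended on the siRNA was tested as the difference of the responses, OLR1 minus scramble siRNA. No member passed, and by limma 0 of 18417 genes did (0%), with 1004 at an unadjusted p under 0.05 (5.45%). The largest differences among the members were those of SRXN1 (0.23, 95% CI 0.00 to 0.45, unadjusted p = 0.0461, adjusted p = 0.904) and ME1 (0.23, 95% CI 0.02 to 0.43, unadjusted p = 0.0337, adjusted p = 0.904). For TXNRD1 the difference was 0.01 (95% CI -0.22 to 0.24), with a sign that turned under array weights (-0.04) and repeated quantile normalization (-0.02). In simulated data on 18417 genes, 100 were shifted by 0.5 log2 units and 100 by 1. There the test of this difference recovered 60% of the shifts of 0.5. The adjustment was less strict there than in the real data, where 0 genes passed, so the 60% does not carry over. Differences of that size or smaller can have gone uncalled.

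The genes whose log2 signals followed those of SRXN1 and TXNRD1 most closely were chosen as the 3 with the smallest root mean square difference over the 12 arrays, after each gene was centred on its own mean. For SRXN1, whose own root mean square deviation was 0.73, they were the Hsp110-family chaperone HSPA4L (0.12), DEDD2 (0.14) and the Hsp70 co-chaperone BAG3 (0.16). For TXNRD1, with 0.49, they were GCLM, the modifier subunit of the enzyme that starts glutathione synthesis (0.12), the mitochondrial ribosomal gene MRPL18 (0.12) and the lysosomal galactosidase GLA (0.13). The UVPAPC log2 fold changes of GCLM were 0.95 with OLR1 siRNA and 0.71 with scramble siRNA, and those of HSPA4L were 1.45 and 1.24.

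A further list of 25 genes, called the thioredoxin list here, held other thioredoxin, peroxiredoxin and glutaredoxin genes. It also held sestrins, methionine sulfoxide reductases and ribonucleotide reductase subunits. Of these genes 23 were measured, and PRDX5 and TXNRD3 were not analysed here. With OLR1 siRNA 2 rose with UVPAPC, 1 fell and 20 did not pass, where 6.71% of all genes passed in either direction. With scramble siRNA 3 rose, 1 fell and 19 did not pass, where 7.31% of all genes passed. TXNIP, which binds thioredoxin and inhibits it, fell under both siRNAs. Its log2 signal was 10.01, 9.98 and 9.98 with OLR1 siRNA and UVPAPC, against 10.46, 10.36 and 10.46 untreated, and 9.60, 9.57 and 9.24 with scramble siRNA and UVPAPC, against 10.05, 9.93 and 9.85 untreated. The log2 fold changes were -0.44 (95% CI -0.63 to -0.25, adjusted p = 0.0053) and -0.48 (95% CI -0.66 to -0.29, adjusted p = 0.00287).

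TXNL1, a thioredoxin-like protein bound to the proteasome, rose under both siRNAs (0.36, adjusted p = 0.00238, with OLR1 siRNA and 0.30, adjusted p = 0.00865, with scramble siRNA). SESN2, the stress-induced sestrin, rose with UVPAPC under scramble siRNA (0.52, adjusted p = 0.00149). MSRB1, a selenoprotein that reduces oxidised methionine, passed with OLR1 siRNA (0.34, adjusted p = 0.0213), and the glutaredoxin GLRX with scramble siRNA (0.35, adjusted p = 0.0492). The call of MSRB1 was lost without any one of 4 arrays (adjusted p up to 0.0955) and that of GLRX without any one of 9 (up to 0.176). Under the other siRNA SESN2, MSRB1 and GLRX did not pass. Their mean log2 signals there were 7.34, 7.99 and 5.57 with UVPAPC, against 7.16, 7.74 and 5.28 untreated. No gene of this list passed for the difference of the responses. The mitochondrial reductase TXNRD2 was at -0.00 and -0.01, and the mitochondrial peroxiredoxin PRDX3 at 0.04 and -0.08, with OLR1 and scramble siRNA in that order, and neither passed.

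**Figure D3:**
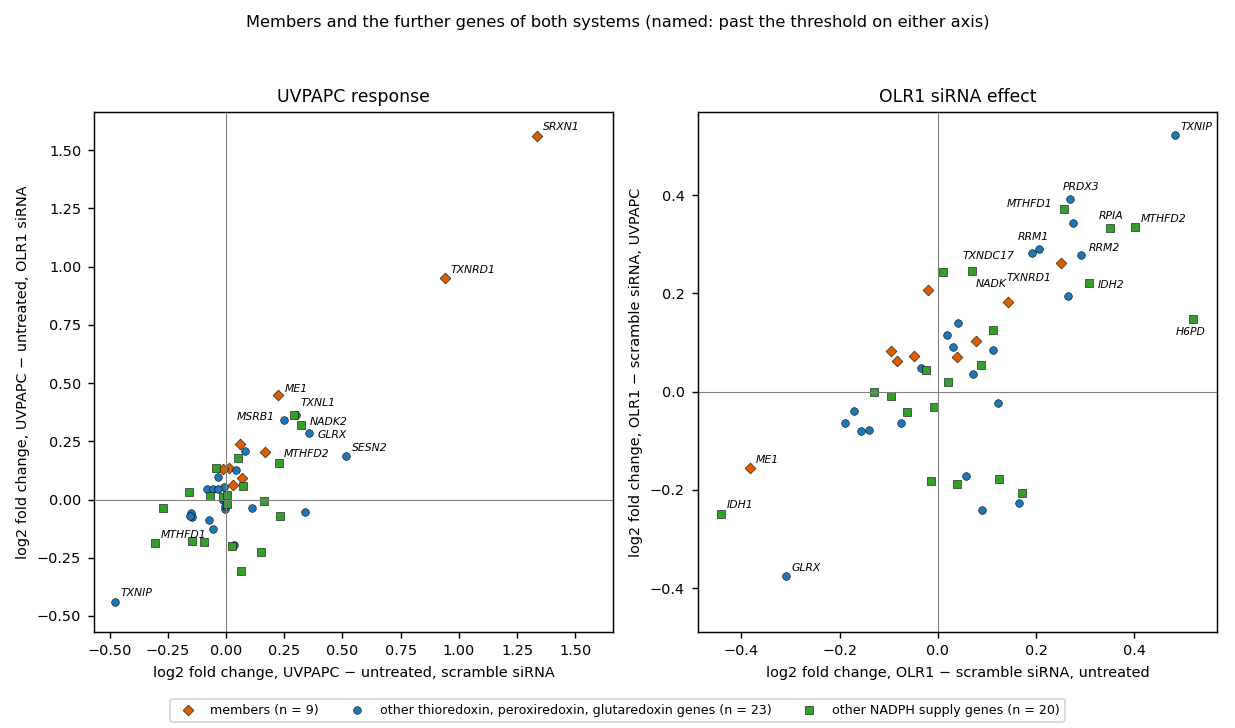
Log2 fold changes of the 9 members, 23 further genes of the thioredoxin list and 20 further NADPH supply genes. Scramble siRNA or untreated cells are on the horizontal axes and OLR1 siRNA or UVPAPC cells on the vertical axes. On the left SRXN1 and TXNRD1 lie apart from all other genes and TXNIP lies lowest (-0.48, -0.44), and on the right TXNIP lies highest and IDH1 and GLRX lie low.

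With OLR1 siRNA, TXNIP rose against scramble siRNA, the opposite direction to its UVPAPC response. The log2 fold change was 0.52 (95% CI 0.33 to 0.71, adjusted p = 0.00139) with UVPAPC and 0.48 (95% CI 0.30 to 0.67, adjusted p = 0.00227) untreated. In all, 5 of these 23 genes rose and 1 fell with UVPAPC, where 12.5% of all genes passed in either direction, and 2 rose and 0 fell untreated, where 9.71% passed. PRDX3 rose with UVPAPC (0.39, adjusted p = 0.00771), as did the ribonucleotide reductase subunits RRM1 (0.29, adjusted p = 0.0166) and RRM2 (0.28, adjusted p = 0.0209) and TXNDC17 (0.28, adjusted p = 0.045). RRM2 also rose untreated (0.29, adjusted p = 0.0186), where PRDX3 was at 0.27 (adjusted p = 0.0614). GLRX fell with UVPAPC (-0.38, adjusted p = 0.0261). The calls of RRM1, both calls of RRM2, TXNDC17 and GLRX were each lost without at least 1 of the 12 arrays (adjusted p up to 0.0731, 0.0792 and 0.0913, 0.149 and 0.114). PRDX3 kept its call without each array (up to 0.0426).

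A further 20 genes of NADPH supply were measured. With OLR1 siRNA 1 of them rose with UVPAPC and 19 did not pass, where 6.71% of all genes passed in either direction. With scramble siRNA 2 rose, 1 fell and 17 did not pass, where 7.31% of all genes passed. NADK2, the mitochondrial NAD kinase, rose under both siRNAs. On the log2 scale its signal was 7.83, 7.65 and 7.79 with OLR1 siRNA and UVPAPC, against 7.46, 7.37 and 7.48 untreated, and 7.73, 7.71 and 7.76 with scramble siRNA and UVPAPC, against 7.47, 7.39 and 7.39 untreated. Both log2 fold changes were 0.32 (adjusted p = 0.00675 with OLR1 siRNA and 0.00667 with scramble siRNA). With scramble siRNA the folate enzyme MTHFD2 was past the threshold at 0.23 (adjusted p = 0.0499) and MTHFD1 at -0.30 (adjusted p = 0.019), calls lost without any one of 10 arrays (up to 0.181) and of 3 arrays (up to 0.0828). With OLR1 siRNA neither passed, at mean log2 signals of 10.01 and 9.15 with UVPAPC against 9.86 and 9.33 untreated. No gene of this list passed for the difference of the responses.

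In the OLR1 siRNA effect on this list 5 genes rose, 1 fell and 14 did not pass with UVPAPC, where 7.94% of all genes rose and 4.56% fell. The counts were equal untreated, where 5.29% of all genes rose and 4.42% fell. IDH1, the cytosolic isocitrate dehydrogenase that yields NADPH, fell with OLR1 siRNA in both treatments. The signal of IDH1, in log2 units, was 10.07, 9.90 and 10.01 with OLR1 siRNA and UVPAPC, against 10.30, 10.31 and 10.12 with scramble siRNA and UVPAPC. In untreated cells it was 9.96, 9.94 and 9.99 with OLR1 siRNA, against 10.43, 10.37 and 10.41 with scramble siRNA. The groups did not overlap in either treatment, and the log2 fold changes were -0.25 (95% CI -0.40 to -0.10, adjusted p = 0.0305) and -0.44 (95% CI -0.59 to -0.29, adjusted p = 0.000761). The first was lost without any one of 4 arrays (adjusted p up to 0.103).

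The mitochondrial IDH2, by contrast, rose with OLR1 siRNA (0.22, adjusted p = 0.0426, with UVPAPC and 0.31, adjusted p = 0.00816, untreated). So did MTHFD2 (0.33, adjusted p = 0.00407, and 0.40, adjusted p = 0.000971) and MTHFD1 (0.37, adjusted p = 0.00424, and 0.26, adjusted p = 0.0374), enzymes of one-carbon metabolism. RPIA, which isomerises ribose phosphate, rose in both treatments (0.33, adjusted p = 0.0458, and 0.35, adjusted p = 0.0428), with overlapping groups untreated. The cytosolic NAD kinase NADK rose with UVPAPC (0.25, adjusted p = 0.0348). H6PD, the glucose dehydrogenase of the endoplasmic reticulum, rose untreated (0.52, adjusted p = 0.00269), at 5.98, 5.999 and 6.03 with OLR1 siRNA against 5.35, 5.36 and 5.74 with scramble siRNA. The calls of IDH2 with UVPAPC, MTHFD1 untreated, RPIA in both treatments and NADK were lost without at least 1 array (adjusted p up to 0.143, 0.15, 0.14 and 0.192, and 0.171).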

How the data were processed

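Total RNA of 12 samples was labelled and read on 1-colour Affymetrix arrays. The deposited values were on the log2 scale. Per the submitters' processing notes, RMA and Affymetrix Expression Console 1.3.1.187 were used, and RMA can compress differences of dim or very bright genes. Of 33297 array entries, 19460 had 1 gene symbol, 1754 several and 12083 none. Each gene was read from its probe set of highest mean signal, which left 18417 genes and no filter on signal. Groups came from the labels. Group means were fitted with limma 3.58.1 in R 4.3.3 over all 12 arrays with 8 residual and 7.66 prior degrees of freedom, and p-values were adjusted by Benjamini-Hochberg over all genes of a comparison, at a threshold of 0.05. Arrays of 1 group correlated at r = 0.996 to 0.998 across genes.

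The text names every member, OLR1, the genes of 2 further lists that passed in any of the 5 comparisons between groups or responses (the averaged ones, added later, aside), and TXNRD2, TXNIP, PRDX3 and IDH1 whatever their result. The members and lists were chosen with earlier results of these data known. Shifts of 0.5 and 1 log2 units in 100 genes each, tested on simulated data over 18417 genes, were recovered at 94% and 100% for the UVPAPC response with scramble siRNA. For the OLR1 siRNA effect untreated they were recovered at 88% and 100%. The simulated noise was independent between genes and few genes were shifted, unlike the real data, so these shares need not carry over. Motifs were searched in RefSeq windows (GRCh38.p14) with Python 3.11.15. The alternatives were a trend in the prior variance, array weights, only genes above the median signal, median centring, repeated quantile normalization, the groups compared alone, a replicate block and each array left out, with cyclic loess and 4 arrays left out added later.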

Additional observations from a re-analysis of the deposited data

How the results depend on the processing

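The UVPAPC calls of SRXN1 and TXNRD1, the UVPAPC call of ME1 with OLR1 siRNA and the fall of ME1 with OLR1 siRNA untreated were kept under every alternative run. Where a call or count moved, the cause was not tested. For single genes, 1638 values kept direction and call, 147 lost a call, 24 gained one and 40 changed sign. Of 31 calls in the further lists, 15 were lost without some array, 18 under some other alternative and 12 under neither. Members past the threshold with scramble siRNA and UVPAPC (2) were 4 with a variance trend and 4 with cyclic loess, and with OLR1 siRNA (3) they were 5 with a variance trend and 5 above the median signal. For the OLR1 siRNA effect with UVPAPC (1) they were 3 with a variance trend, above the median signal and with centring, and 0 without 4 arrays or with the groups compared alone. For that effect untreated (2) they were 1 with repeated quantile normalization, cyclic loess or without 4 arrays. Of the 23 further genes of the thioredoxin list, the UVPAPC count with scramble siRNA (4) was 2 without 4 arrays. The OLR1 siRNA count untreated (2) was 4 with a variance trend, weights or genes above the median, and 1 without 4 arrays, and with UVPAPC (6) it was 3 with cyclic loess and 2 without 4 arrays. Of the 20 further NADPH genes, the UVPAPC count with scramble siRNA (3) was 0 without 4 arrays, that with OLR1 siRNA (1) was 2 with the groups compared alone, and the OLR1 siRNA count with UVPAPC (6) was 2 without 4 arrays and 3 with the groups compared alone. Over all genes, leaving out 4 arrays gave 752 calls against 1347 (UVPAPC, scramble siRNA), 1091 against 1789 (OLR1 siRNA, untreated) and 1161 against 2302 (OLR1 siRNA, UVPAPC). Those 4 were the second untreated and the third UVPAPC scramble array and the third untreated and the second UVPAPC array with OLR1 siRNA, each the array of its group with the highest score on principal component 1 once group means were removed, a choice made after seeing the data. Their deviations correlated at 0.177 to 0.266 in all 6 pairs, which choosing them on that score favours.

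Leaving out 1 array at a time, members past the threshold numbered 2 to 3 (UVPAPC, scramble siRNA), 3 to 4 (UVPAPC, OLR1 siRNA), 1 to 2 (OLR1 siRNA, untreated), 0 to 2 (OLR1 siRNA, UVPAPC) and 0 to 0 (difference), in the order used for the following ranges. The further genes of the thioredoxin list numbered 3 to 4, 2 to 3, 1 to 3 and 2 to 7, the further NADPH genes 1 to 3, 1 to 2, 4 to 6 and 3 to 6, and all genes 868 to 1340, 865 to 1397, 1101 to 2055, 1267 to 2254 and 0. In the averaged UVPAPC response 4 to 5 members and 2160 to 2449 genes passed, and in the averaged OLR1 siRNA effect 3 to 3 members and 3349 to 4215 genes. Values that changed sign were all small and uncalled. With scramble siRNA the UVPAPC response of PGD became 0.0127 with weights, 0.00503 with repeated quantile normalization, 0.0328 with cyclic loess and 0.0145 without 4 arrays, and without 1 array PGD ranged from -0.0425 to 0.0287, PRDX6 from -0.0232 to 0.0642 and TKT from -0.00172 to 0.0738. In the OLR1 siRNA effect untreated, SRXN1 became 0.000129 with centring (without 1 array -0.0418 to 0.0199) and TKT -0.01 with cyclic loess. In that effect with UVPAPC, repeated quantile normalization gave -0.019 for PRDX6, -0.0323 for PGD and -0.00847 for TKT, and cyclic loess -0.0371 for TXN, -0.0439 for PRDX6, -0.0495 for PGD and -0.0362 for TKT. In the difference of responses, TXNRD1 became -0.04 with weights, -0.0199 with repeated quantile normalization and -0.0523 with cyclic loess (without 1 array -0.0519 to 0.0693). PRDX1 became -0.0174 and -0.0229 under those normalizations and -0.0116 without 4 arrays, and TALDO1 -0.0222, -0.0321 and -0.0442 (without 1 array -0.0194 to 0.0693). TKT became -0.00333 with weights, then -0.0132, -0.0261 and -0.0238 (without 1 array -0.012 to 0.0635). Whether replicate numbers pair the arrays is not known. Deviations of 18 pairs of the same number correlated at -0.221 to 0.263, 6 of them over 0.1, and 3 of 12 arrays correlated best with their own number. With 3 arrays per group such correlations cannot exclude a pairing. With the replicate number as a block, 1309, 1220, 1756 and 2309 genes passed, against 1347, 1236, 1789 and 2302, and the members past the threshold numbered 2, 3, 2, 1 and 0. The 3 arrays per group limit what could be called.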
